A study of Rattus norvegicus with 21 samples.

Results

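The 10 genes described here encode enzymes that the liver uses to take apart amino acids and to dispose of their nitrogen. Cps1, Otc, Ass1, Asl and Arg1 form the urea cycle, and Tat, Hpd, Hgd, Aass and Ftcd break down single amino acids. They were chosen by name for these roles from 14218 genes with a probe set that carries a single gene symbol. The 10 genes had 12 such probe sets, of which Cps1 and Asl each had 2. For each gene the probe set with the highest mean over the 21 arrays was used, and the other one served as a check.

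The samples came from 9 male young adult Fischer 344 rats that had all been inoculated to give BDEneu tumours. BDEneu is, as background, a line of rat bile duct epithelial cells with an activated neu oncogene, so all tumours came from a single line, and the labels call them intrahepatic cholangiocarcinoma, a bile duct cancer in the liver. The 7 groups of 3 arrays were metastases of day 25 (rats 7 to 9), tumours of day 10 (rats 1 to 3), day 15 (rats 4 to 6) and day 25 (rats 7 to 9), and the normal right liver lobe of the same rats at days 10, 15 and 25. The livers were those of tumour-bearing rats, and livers of rats without tumours were not analysed here. RNA came from whole pieces of tissue, so fewer cells of a type and less RNA per cell cannot be told apart.

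As background, hepatocytes free ammonia from amino acids and bind it in mitochondria with Cps1, after which Otc, Ass1, Asl and Arg1 carry the nitrogen into urea. Cps1 and Otc work inside the mitochondrion, while Ass1, Asl and Arg1 work in the cytosol and are used in many other cells to make or split arginine. Tat, Hpd and Hgd act one after another on tyrosine, Aass opens the breakdown of lysine, and Ftcd handles the last steps of histidine breakdown and passes a carbon unit to folate. Bile duct epithelium, the source of the tumour line, is not known for either pathway.

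All values are log2 expression levels per probe set, as the authors deposited them, and a difference of 1 is a doubling. Array medians lay between 5.98 and 6.06 and single values between 3.16 and 14.62, so a level below about 6 lies in the lower part of the scale. The markers bore out the tissue labels in part. The mean of 6 biliary epithelium markers was 11.71 to 11.90 in the metastases and 11.17 to 11.72 in the tumours, against 5.74 to 7.37 in the livers. The mean of 12 hepatocyte markers was 5.71 to 6.43 in the metastases and 8.16 to 12.64 in the tumours, against 13.19 to 13.46 in the livers. The tumour pieces thus carried hepatocyte transcripts in varying amounts, which may bear on every tumour value below, and their part in those values was not tested. Pancreatic acinar transcripts were raised on 4 arrays (mean over 8 markers 6.81 in the tumour of rat 2, 9.17 in that of rat 5, 8.95 in that of rat 9 and 11.32 in the metastasis of rat 8, against 5.05 to 5.61 on the other arrays).

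The promoters of Cps1, Otc, Hpd and Aass are shown because these 4 genes are singled out below. Cps1 and Otc were high in 1 metastasis, and Otc had the largest change in the livers of day 25, without a call. Hpd and Aass were the members called between metastases and tumours, though other members went the same way. Each runs 5′ to 3′ on the gene's strand, from 250 bases before to 50 bases after the start of the gene, as RefSeq annotates it on the rat build GRCr8. The windows are chr9:76063613-76063912 on the plus strand for Cps1, chrX:15202424-15202723 on the minus strand for Otc, chr12:39041996-39042295 on the plus strand for Hpd and chr4:52628762-52629061 on the minus strand for Aass. Capitals mark the letters that match a motif described after the sequences.
Cps1: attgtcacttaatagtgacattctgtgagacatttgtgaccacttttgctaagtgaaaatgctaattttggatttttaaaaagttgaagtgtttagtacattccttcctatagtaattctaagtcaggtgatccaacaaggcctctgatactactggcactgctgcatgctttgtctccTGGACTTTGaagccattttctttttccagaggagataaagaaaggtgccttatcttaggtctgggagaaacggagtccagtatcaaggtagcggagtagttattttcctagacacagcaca
Otc: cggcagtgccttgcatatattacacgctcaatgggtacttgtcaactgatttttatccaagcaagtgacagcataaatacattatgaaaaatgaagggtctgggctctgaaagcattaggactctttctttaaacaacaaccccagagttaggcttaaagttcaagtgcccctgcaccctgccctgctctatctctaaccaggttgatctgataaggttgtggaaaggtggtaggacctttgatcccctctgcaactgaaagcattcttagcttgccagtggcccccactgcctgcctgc
Hpd: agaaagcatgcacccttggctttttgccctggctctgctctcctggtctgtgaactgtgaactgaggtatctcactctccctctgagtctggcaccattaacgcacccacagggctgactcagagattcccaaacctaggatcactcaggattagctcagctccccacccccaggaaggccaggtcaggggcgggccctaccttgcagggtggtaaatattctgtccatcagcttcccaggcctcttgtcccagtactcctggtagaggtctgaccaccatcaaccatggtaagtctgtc
Aass: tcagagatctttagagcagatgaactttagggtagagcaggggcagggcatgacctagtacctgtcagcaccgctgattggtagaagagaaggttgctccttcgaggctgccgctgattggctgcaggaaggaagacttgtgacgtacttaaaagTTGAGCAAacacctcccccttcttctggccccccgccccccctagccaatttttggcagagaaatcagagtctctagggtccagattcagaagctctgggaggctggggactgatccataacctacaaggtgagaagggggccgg
A RefSeq promoter was matched for 9 of the 10 genes, all but Arg1. Both strands were searched for the HNF4A motif CAAAGTCCA, the C/EBP motif TTGCNNAA, the FOXA motif TGTTTAC and the short glucocorticoid receptor motif TGTTCT, and the given strand for TATAAA. No match of one motif overlapped a match of another in these windows. Cps1 held the HNF4A letters at positions -71 to -63 from the start, on the opposite strand, as did 0.375% of the 27457 rat promoters in the table. Aass held the C/EBP letters at -95 to -88 on the opposite strand (10.5% of promoters). The Otc and Hpd windows held none of these letters. Among the other members, Hgd held the C/EBP letters at 2 places, and Ftcd held TATAAA (9.08% of promoters) and the glucocorticoid receptor letters (20.1% of promoters). FOXA letters (3.76% of promoters) were in none of the 9 windows.

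The comparison of tumours with livers asks how far these hepatocyte functions were present in the tumour tissue. All 5 urea cycle genes and all 5 amino acid breakdown genes were lower in the 9 tumours than in the 9 right liver lobes, at limma's Benjamini-Hochberg adjusted p under 0.05. At this threshold 37.8% of all genes were lower in tumours, so a call alone sets no gene apart. The median log2 change was -3.12 over the 10 genes and -0.03 over all genes tested. The drop was least for Arg1 (3.54-fold), Ass1 (3.88-fold) and Cps1 (4.77-fold), and greatest for Aass (13.3-fold) and Tat (13.0-fold). The place of Cps1 among the least depends on the probe set. Its check probe set changed by -2.84 on day 10 and -3.31 on day 15, against -1.87 and -2.11 for the one used.

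Within the urea cycle, Cps1, which makes carbamoyl phosphate from ammonia, was measured at 11.65, 10.76 and 11.71 in the tumours of day 10, at 10.42, 12.18 and 10.02 in those of day 15 and at 9.07, 11.43 and 10.85 in those of day 25. In the livers it was at 13.20, 13.27 and 13.25 on day 10, at 12.78, 13.20 and 12.97 on day 15 and at 13.66, 13.20 and 12.85 on day 25. Every tumour was below every liver, with a log2 change of -2.26 ± 0.65 (SE, n = 9 each) and an adjusted p of 0.00524 from limma over all days. Otc, which joins carbamoyl phosphate to ornithine, was at 9.14, 8.30 and 9.41 in the tumours of day 10, at 7.39, 9.94 and 6.99 on day 15 and at 4.54, 7.13 and 7.48 on day 25. The livers had 11.81, 12.11 and 12.00 on day 10, 11.37, 11.84 and 11.33 on day 15, and 9.44, 10.27 and 10.36 on day 25. The tumour of rat 5 (9.94) lay above the liver of rat 7 (9.44), so Otc was the one member whose tumours and livers overlapped over all days. The change was -3.35 ± 0.55 (SE), the deepest of the 5 urea cycle genes, with an adjusted p of 3.59e-05.

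The cytosolic enzymes of the cycle had smaller measured changes than Otc, though differences in change between genes were not tested. Ass1, which condenses citrulline with aspartate, had a lowest, median and highest level of 10.67, 11.32 and 12.41 in the 9 tumours and of 12.70, 13.44 and 13.96 in the 9 livers. Asl, which splits argininosuccinate into arginine and fumarate, averaged 8.35 in tumours and 10.81 in livers. Arg1, which releases urea from arginine, averaged 11.20 in tumours and 13.02 in livers. The groups did not overlap for any of these 3 genes, and the log2 changes were -1.96 ± 0.20 for Ass1, -2.47 ± 0.25 for Asl and -1.82 ± 0.20 for Arg1 (SE, n = 9 each). Their adjusted p-values were 1.74e-07, 1.98e-07 and 4.92e-07 in that order. The probe set used for Asl is annotated to Asl by gene number, while its accession now belongs to Hnrnpab. The check probe set, whose accession is that of Asl, had a correlation of 0.998 with it over the 21 arrays and gave a change of -2.66.

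All 5 amino acid breakdown genes had larger measured drops than Ass1, Asl and Arg1. Tat, tyrosine aminotransferase, was at 8.45, 7.31 and 9.01 in the tumours of day 10, at 6.44, 9.69 and 7.87 on day 15 and at 6.86, 7.69 and 7.26 on day 25. In the livers it was at 11.21, 11.47 and 12.00, at 10.40, 12.04 and 12.03 and at 13.27, 11.33 and 10.11 on the same days. The tumours lay below all livers, and the log2 change was -3.70 ± 0.44 (SE) with an adjusted p of 1.19e-06. For the next tyrosine enzymes, Hpd (4-hydroxyphenylpyruvate dioxygenase) changed by -2.88 ± 0.38 and Hgd (homogentisate dioxygenase) by -3.55 ± 0.41. Aass changed by -3.73 ± 0.38 and Ftcd by -3.63 ± 0.38. The adjusted p-values of these 4 genes ran from 2.04e-07 to 3.66e-06, and none of the 5 breakdown genes had a tumour at or above any liver. In all, 9 of the 10 members had non-overlapping groups, against 12.4% of all genes that were lower in this way.

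**Figure D1:**
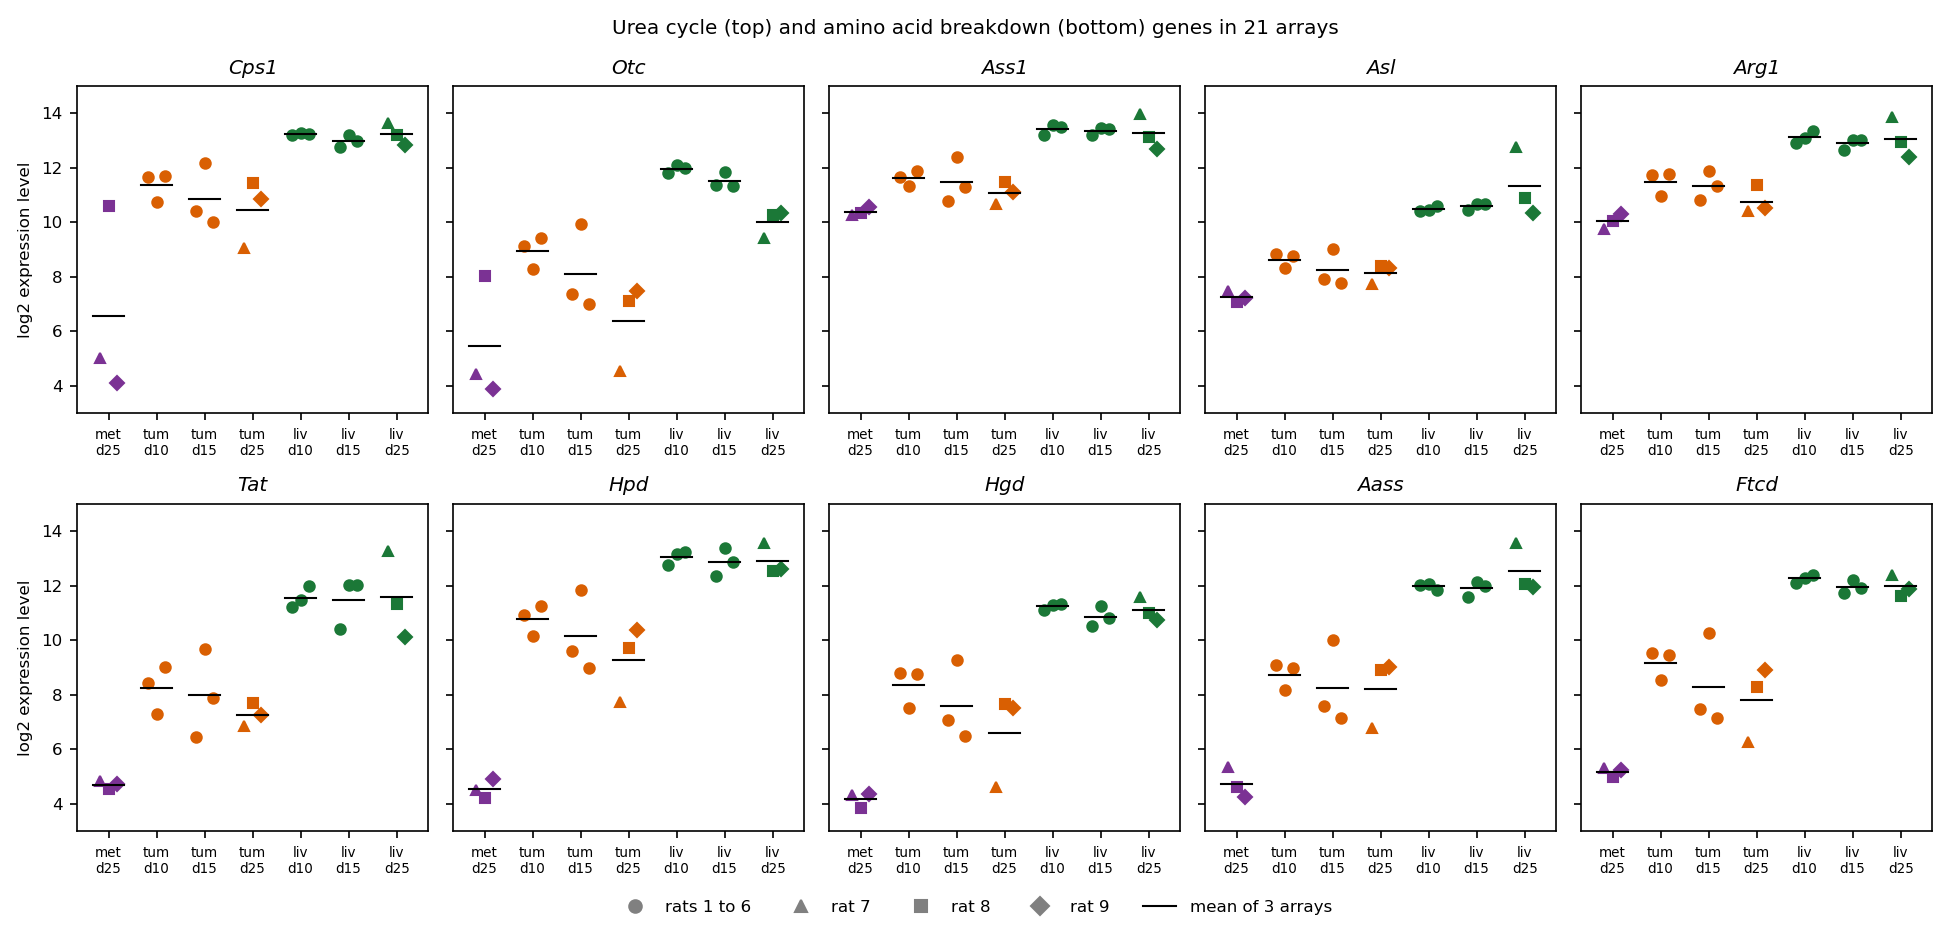
Log2 expression level (vertical axis) of the 5 urea cycle genes (top) and the 5 amino acid breakdown genes (bottom) in metastases, tumours of days 10, 15 and 25 and livers of the same days; each point is an array, the marker gives the rat at day 25, and the line is the mean of 3 arrays. The livers sit at the top, the tumours between, and the 3 metastases at the bottom, apart from the metastasis of rat 8 (square) for Cps1 and Otc. For Otc, 1 tumour of day 15 (9.94) also lies above 1 liver of day 25 (9.44).

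Day by day, 9 members were lower in tumours on day 10, 9 on day 15 and all 10 on day 25, with median changes of -2.58, -2.99 and -3.64. Of all genes, 28.0%, 23.6% and 22.4% were lower on these days. On each day every tumour lay below every liver for all 10 genes, as it did for 36.5%, 30.0% and 25.6% of all genes. The uncalled gene on days 10 and 15 was Cps1, with changes of -1.87 (adjusted p = 0.166) and -2.11 (adjusted p = 0.129), and on day 25 it changed by -2.79 (adjusted p = 0.0496). The spread estimate of Cps1 is shared over the 7 groups and takes in the metastasis of rat 8, which is described later. Without that array, the adjusted p of Cps1 was 0.00922, 0.0049 and 0.000638 on the 3 days, and its check probe set was called on each day with all arrays (adjusted p of 0.0253, 0.0129 and 0.00673). The day 25 call of Cps1 held in 5 of the 21 fits that left out 1 array, so this call sits at the threshold. It was also lost without single arrays of days 10 or 15, with the change still at -2.79 (adjusted p of 0.054 to 0.0593 from limma). Without the tumour of rat 7 the change was -2.10 (adjusted p = 0.185).

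Each tumour can also be set beside the liver of its own rat. Over the 10 genes, the median level in tumours was 24.1%, 9.59% and 20.7% of the own liver on day 10, 11.8%, 29.1% and 6.14% on day 15, and 2.32%, 12.7% and 17.1% on day 25. The 12 hepatocyte markers, taken in the same way, had medians of 63.8%, 31.7% and 60.5% on day 10, 28.0%, 66.8% and 15.8% on day 15, and 2.53%, 34.5% and 39.9% on day 25. The tumour of rat 7 was lowest and that of rat 5 highest for both sets of genes. All 5 amino acid breakdown genes were below the hepatocyte marker median in 9 of 9 tumours. The markers lay near the top of the scale in livers, with means of 13.19 to 13.46 on day 15 and a highest value of 14.62 on any array. Differences may be compressed there, so the marker percentages may be held up, and the gap to the members was not tested.

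The order among the members was much the same from tumour to tumour. Ass1 and Arg1 were each nearer to the liver level than all 5 breakdown genes in 9 of 9 tumours, and with Asl included this held in 8 of 9. Arg1 was at 9.19% to 46.1% of the own liver (median 30.7%) and Ass1 at 10.2% to 48.6% (median 31.4%). Aass was at 0.902% to 22.8% (median 11.1%) and Tat at 1.18% to 19.6%. Otc was the farthest from liver of the 5 urea cycle genes in 8 of 9 tumours. Differences between genes in these percentages were not tested, since each probe set has its own response. Ass1, Cps1, Arg1 and Hpd averaged 13.35, 13.15, 13.02 and 12.94 in the 9 livers, near the top of the scale. Their differences may be compressed too, and their percentages held up.

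**Figure D2:**
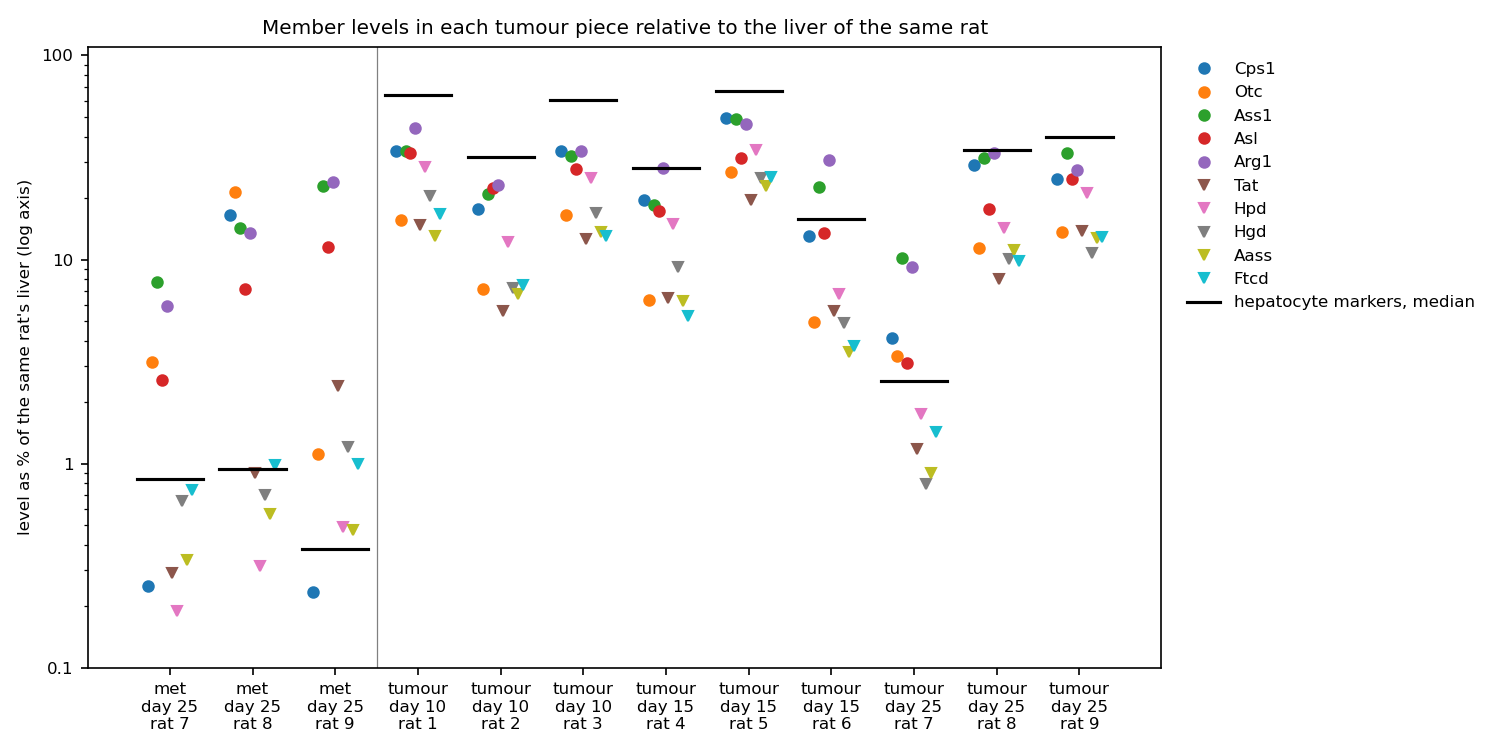
Level of each member as a percentage of the liver of the same rat (logarithmic vertical axis) in the 3 metastases and the 9 tumours; circles are urea cycle genes, triangles are amino acid breakdown genes, and the black bar is the median of 12 hepatocyte markers. Ass1 and Arg1 lie near the top in every piece, the breakdown genes lie below the black bar in all 9 tumours, and Cps1 and Otc stand high only in the metastasis of rat 8 among the metastases.

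The metastases of day 25 were compared with the tumours of the same 3 rats and with their livers. Hpd and Aass were lower in metastases than in tumours, and the other 8 members were not called. Of all genes, 0.331% were lower in this comparison. Hpd was at 4.52, 4.21 and 4.92 in the metastases of rats 7, 8 and 9, against 7.72, 9.72 and 10.36 in their tumours. The metastases lay far below the tumours, with a log2 change of -4.71 ± 0.66 (SE, n = 3 each) and an adjusted p of 0.00184 from limma. Aass was at 5.34, 4.60 and 4.25 in the metastases, against 6.77, 8.90 and 9.01 in the tumours. Its groups did not overlap either, with a change of -3.50 ± 0.66 (SE) and an adjusted p of 0.0243. Both genes were below the lowest array median in all 3 metastases, at the bottom of the scale, so the size of these changes is as measured and may be compressed. With the rat as a block the adjusted p was 0.0198 for Hpd and 0.123 for Aass. With only these 2 groups in the fit it was 0.911 for both, and Aass also lost its call without the tumour of rat 8 (adjusted p = 0.217), the tumour of rat 9 (0.215), the metastasis of rat 8 (0.103) or that of rat 9 (0.17).

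Among the members that were not called, 3 breakdown genes were also low in all metastases. Hgd was at 4.33, 3.83 and 4.36, Ftcd at 5.32, 4.97 and 5.23 and Tat at 4.84, 4.53 and 4.73 in the metastases. Their changes against the tumours were -2.43 (adjusted p = 0.321), -2.65 (0.165) and -2.57 (0.355). Hgd and Ftcd passed the threshold when the tumour of rat 7 was left out (-3.43 for both, adjusted p of 0.00317 and 0.00536), and Ftcd also without the tumour of rat 5 (0.0142). The tumour of rat 7 had the lowest hepatocyte marker mean of the 9, at 8.16. Of the cytosolic urea cycle genes, Ass1 and Arg1 lay well above the array medians in the metastases. Asl lay closer to these medians, at 7.47, 7.09 and 7.22 in the metastases. Ass1 was at 10.27, 10.34 and 10.58 there and 10.67, 11.47 and 11.11 in the tumours, a change of -0.69 (adjusted p = 0.821). Arg1 was at 9.76, 10.05 and 10.32 in metastases and at 10.41, 11.36 and 10.52 in tumours, a change of -0.71 (0.82), and Asl changed by -0.90 (0.82). Over the 10 genes the median change was -2.50, against 0.06 over all genes, and 8 of the 10 had metastases below all tumours, against 3.93% of all genes.

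Against the livers of the same rats, all 10 members were lower in the metastases, as were 23.6% of all genes. The metastases lay below all 3 livers for each member, as they did for 25.7% of all genes. The median change was -6.73, against 0.03 over all genes. Hpd differed most, with a change of -8.35 ± 0.66 (SE), followed by Aass with -7.80 ± 0.66. Ass1 and Arg1 differed least, with -2.87 ± 0.34 and -3.01 ± 0.35, and adjusted p-values of 3.12e-06 and 2.29e-06. Ass1 in the metastases was at 7.73%, 14.3% and 22.9% of the own liver in rats 7, 8 and 9, and Arg1 at 5.89%, 13.5% and 23.9%. Hpd was at 0.189%, 0.313% and 0.489% and Aass at 0.335%, 0.565% and 0.473%. The hepatocyte marker median was at 0.839%, 0.936% and 0.382% of the own liver. Ass1 and Arg1 lay above that median in 3 of 3 metastases and in 2 of 9 tumours. The levels of all 5 breakdown genes were below the lowest array median in 3 of 3 metastases, so their percentages are set in part by the bottom of the scale, whereas Ass1, Asl and Arg1 were above it in all 3.

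Cps1 and Otc behaved differently in the metastasis of rat 8 from the other 2 metastases. Cps1 was at 5.02, 10.61 and 4.12 in the metastases of rats 7, 8 and 9, against 9.07, 11.43 and 10.85 in their tumours and 13.66, 13.20 and 12.85 in their livers. Otc was at 4.45, 8.05 and 3.88 in the metastases, against 4.54, 7.13 and 7.48 in the tumours. Both genes stood high in rat 8 alone, at 16.5% of the own liver for Cps1 and 21.5% for Otc, against 0.25% and 3.14% in rat 7 and 0.236% and 1.12% in rat 9. The check probe set of Cps1 gave 4.60, 9.21 and 4.51, with the same array high. With all arrays, the changes from tumours to metastases were -3.86 ± 1.13 for Cps1 (SE, adjusted p = 0.33) and -0.93 ± 0.95 for Otc (adjusted p = 0.864). Without the metastasis of rat 8, Cps1 changed by -5.88 with an adjusted p of 0.00105.

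Markers of other tissues were also high on that array, while the mean of the hepatocyte markers was not. The 4 measured intestinal epithelium markers had a mean of 8.45 there, against 5.40 and 5.29 in the metastases of rats 7 and 9, 5.22 to 6.26 in the tumours and 5.70 to 5.95 in the livers. Muc2, the secreted intestinal mucin, was at 9.58, against 5.81 and 5.86 in the metastases of rats 7 and 9. Alpi, intestinal alkaline phosphatase, was at 9.52, against 5.58 and 5.48. Vil1 was at 7.70, against 4.77 and 4.80, and Fabp2 at 7.00, against 5.42 and 5.02. The 8 pancreatic acinar markers averaged 11.32, against 5.24 and 5.12. The 12 hepatocyte markers averaged 6.41 in the metastasis of rat 8, against 6.43 and 5.71 in the other 2. Some single hepatocyte markers spread more widely over the 3 metastases, such as Apoa1 (5.12 to 9.96) and Apob (5.08 to 8.41). As background, small intestinal epithelium also expresses Cps1 and Otc, where they serve citrulline synthesis. The part of the intestinal and acinar transcripts in the Cps1 and Otc levels was not tested.

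**Figure D3:**
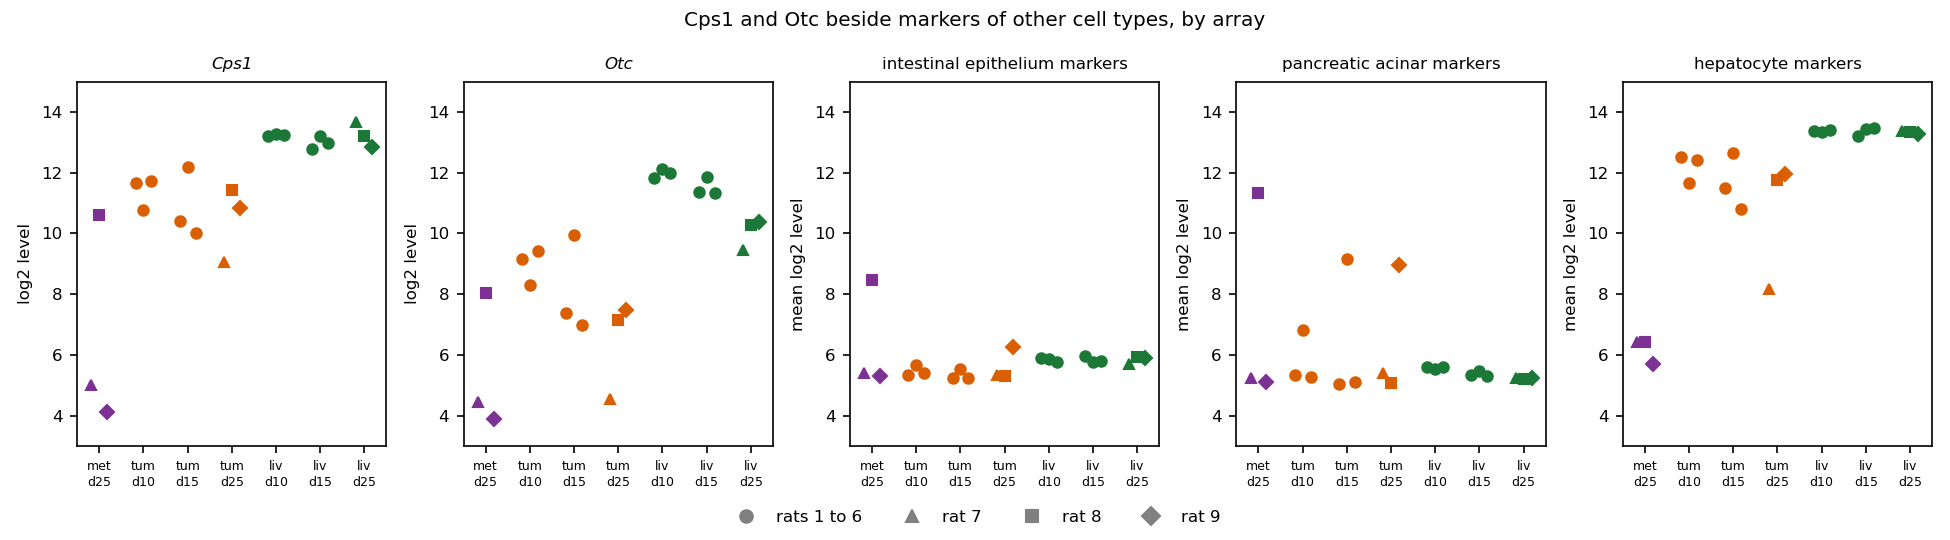
Log2 level of Cps1 and Otc and the mean log2 level of marker lists (vertical axes) by array in metastases, tumours and livers; marker shapes give the rat at day 25. The metastasis of rat 8 (square) is high for Cps1 (10.61), Otc (8.05) and the intestinal list (8.45), and is level with the other metastases for the hepatocyte list (6.41).

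Over time in the tumours, no member was called between any 2 days. For day 15 against day 10 the median log2 change was -0.49, for day 25 against day 15 it was -0.53, and for day 25 against day 10 it was -0.96. Of all genes, 0%, 0% and 0.0563% were called. At an unadjusted p under 0.05, limma gave 0, 0 and 3 of the 10 members, and 2.46%, 8.45% and 17.2% of all genes. Group means declined from day 10 to day 25 for each member, but the arrays overlapped for all members except Otc. Otc was at 4.54, 7.13 and 7.48 in the tumours of day 25, against 9.14, 8.30 and 9.41 on day 10, with a change of -2.57 ± 0.95 (SE, n = 3 each) and an adjusted p of 0.204. Of all genes, 15.0% had tumours of day 25 below all those of day 10. Without the 4 arrays with raised acinar transcripts, Otc (-3.44, adjusted p = 0.0194), Hpd (-2.37, 0.0351), Hgd (-2.64, 0.0461) and Ftcd (-2.22, 0.0261) were lower on day 25. In that setting 1 of the 2 tumours of day 25 that are kept is that of rat 7, the tumour with the lowest hepatocyte marker mean.

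In the livers no member was called between days either, and Otc was the gene whose level differed most. The median changes were -0.20 for day 15 against day 10, 0.12 for day 25 against day 15 and -0.10 for day 25 against day 10. Of all genes, 0.0281%, 2.20% and 9.10% were called. At an unadjusted p under 0.05, limma gave 0 of 10 members in each of these, and 10.1%, 15.3% and 24.9% of all genes. Otc was at 9.44, 10.27 and 10.36 in the livers of day 25, against 11.81, 12.11 and 12.00 on day 10. All 3 livers of day 25 lay below all 6 earlier ones, with a change from day 10 of -1.95 ± 0.95 (SE, n = 3 each) and an adjusted p of 0.214. Of all genes, 15.3% had livers of day 25 below all those of day 10. Otc passed the threshold with only these 2 groups in the fit (adjusted p = 0.016) and without the 4 arrays with raised acinar transcripts (0.0284), none of which is a liver. The other urea cycle genes had changes of 0.00 for Cps1, -0.17 for Ass1, -0.05 for Arg1 and 0.83 for Asl over the same time.

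The livers of day 25 also differed among themselves. The liver of rat 7 had 13.27 for Tat, against 11.33 and 10.11 in rats 8 and 9, and 12.76 for Asl, against 10.90 and 10.34. For Aass it had 13.57, against 12.07 and 11.97. In this liver 9 of the 10 members were above the mean of the other 2, by 0.63 (Cps1) to 2.55 (Tat) on the log2 scale, while Otc was 0.87 below it. The hepatocyte markers differed between this liver and the mean of the other 2 by -0.57 to 1.14, with Alb at -0.10 and Ttr at 0.03. Across the 9 livers the level of Otc ran against that of Asl (Pearson r = -0.713) and Aass (r = -0.671), over livers that share 1 normalization. The liver of rat 7 was the highest of the 9 for Asl (12.76) and Aass (13.57) and the lowest for Otc (9.44). Both r thus lean on this 1 array, and r without it was not computed. Over the 9 tumours all pairs of members had r of 0.638 to 0.982. These correlations describe the arrays and were not tested. Of the 6 neutrophil markers, 5 were higher in livers of day 25 than of day 10 (median change 2.61), as were 4 of 8 macrophage markers (0.63), 2 of 9 fibroblast markers (Col1a2 by 1.42 and Dcn by 2.34), 1 of 6 biliary markers (Cd24 by 1.77) and 1 of 6 endothelial markers (Vwf by 1.04), and 0 of 12 hepatocyte markers was called. The biliary marker mean was 7.37 in the liver of rat 7, against 6.24 and 5.85 in rats 8 and 9, and Msln, a mesothelium marker, was at 9.32, against 6.36 and 6.20. The part of these cell types in the liver values was not tested.

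**Figure D4:**
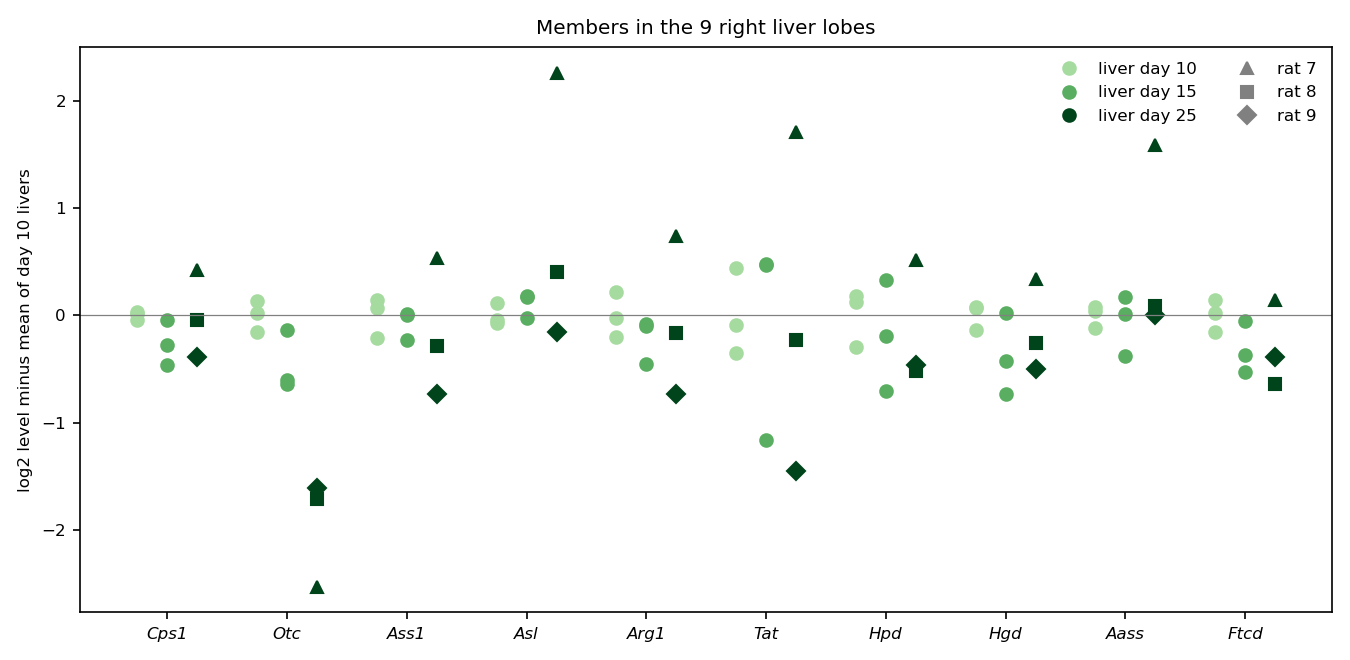
Log2 level of each member in the 9 right liver lobes minus the mean of the day 10 livers (vertical axis), with days by colour and the rats of day 25 by marker shape. Otc is the one member with all 3 livers of day 25 below all others, and the liver of rat 7 (triangle) is high for Tat, Asl and Aass and lowest for Otc.

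The change of the tumour to liver difference between day 10 and day 25 was tested directly. No member was called in limma, against 1.46% of all genes. At an unadjusted p under 0.05 there was 1 member, Asl (-1.31 ± 0.62, SE), and 17.6% of all genes. From day 10 to day 25 Asl changed by 0.83 in the livers and by -0.48 in the tumours, neither of them called. The liver of rat 7 was at 12.76 for Asl, against 10.90 and 10.34 in rats 8 and 9. The median of this change was -1.03 over the members, against 0.01 over all genes.

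The wider amino acid pathways were described by 12 lists of 84 genes, of which 78 were measured. In tumours against livers, 67 of the 78 were lower and 6 higher, with a median change of -1.86. Of all genes, 37.8% were lower in this comparison, which is the share to set beside the counts that follow. The 8 measured partners of the urea cycle were all lower (median -1.66), among them Slc25a15, the mitochondrial ornithine carrier (-2.88 ± 0.31, SE), Gls2, the liver glutaminase (-2.70 ± 0.29), and Nags, which makes the activator of Cps1 (-2.52 ± 0.24). The other enzymes of phenylalanine and tyrosine breakdown were lower in 3 of 3 (Fah, the last enzyme of the path, -2.74), those of tryptophan in 6 of 6 (Acmsd -3.22, Kynu -3.14, Tdo2 -2.69), those of histidine in 2 of 2 (Uroc1 -3.49, Hal -3.09) and those of lysine in 3 of 3 (Aadat -3.07). Serine, glycine and threonine breakdown was lower in 13 of 13 genes (median -2.11, Dmgdh -3.64), methionine and cysteine breakdown in 7 of 7 (median -2.63, Bhmt -3.75, Cth -3.45), and proline breakdown in 4 of 4 (median -2.28, Hoga1 -3.40). Of the 7 measured regulators of such genes, 6 were lower, with Klf15 at -2.63, the glucagon receptor Gcgr at -2.41 and Hnf4a at -2.24, and Cebpb was not called (0.11, adjusted p = 0.529).

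A few lists held genes that were not lower. Of branched-chain amino acid breakdown, 11 of 12 were lower (median -1.33, Aldh6a1 -2.73), and Bcat2, the transaminase found in most tissues outside the liver and named here after its values were seen, was higher by 1.17 ± 0.10 (SE, adjusted p = 3.78e-08). Glutamine synthetase, Glul, was at 10.61 to 11.48 in tumours and 10.69 to 11.41 in livers and was not called (change 0.12, adjusted p = 0.228), while Slc1a2, a glutamate transporter of pericentral hepatocytes, had a change of -1.19 and was called lower. Arginine use and synthesis outside the urea cycle was split, with 5 of 10 genes higher and 3 lower (median 0.23). Of all genes, 37.8% were lower at the same threshold, and the share called higher is not given here. At the looser threshold of an unadjusted p under 0.05 from limma, 76.3% of all genes differed in either direction. No conclusion about the list is therefore drawn from these counts. Slc7a1, the arginine transporter, averaged 9.02 ± 0.47 in tumours and 6.36 ± 0.47 in livers (SD, n = 9 each), a change of 2.67 ± 0.17 (SE) with an adjusted p of 6e-10. Odc1, which turns ornithine into the polyamine putrescine, averaged 11.99 ± 0.21 in tumours and 10.06 ± 0.52 in livers, a change of 1.93 ± 0.14. The other higher genes, named after their values were seen, were Cad (1.42), Asns (0.96) and Azin1 (0.58). Lower were Gamt (-2.36), Slc7a2 (-1.09) and Gatm (-0.53).

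**Figure D5:**
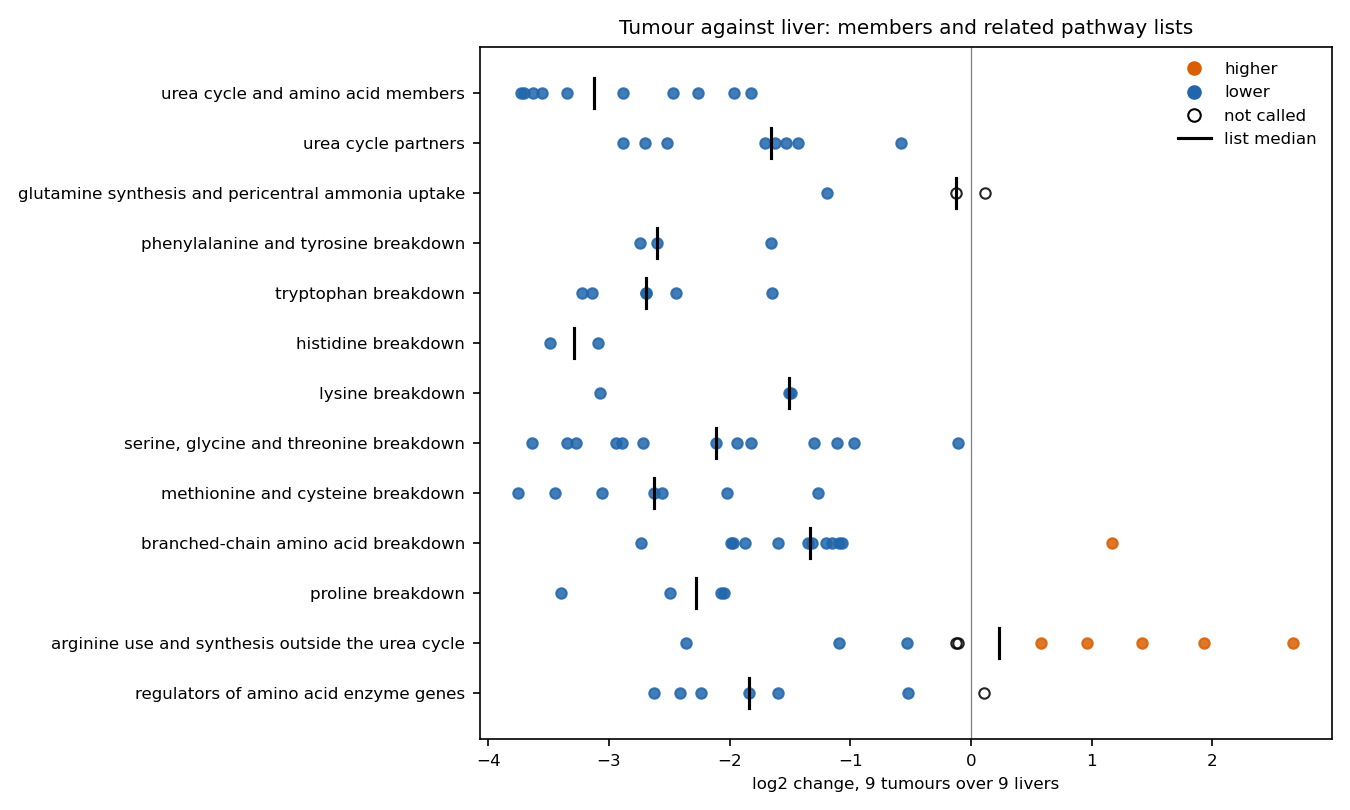
Log2 change in the 9 tumours over the 9 livers (horizontal axis) for each gene of the member list and the 12 pathway lists; filled points were called higher or lower by limma, open points were not called, and the bar is the median of the list. The members lie at -3.73 to -1.82, and the list of arginine use outside the urea cycle lies on both sides of 0.

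In metastases against tumours of day 25, 0.331% of all genes were lower. Of the 78 genes, 2 were lower and none higher (median -0.24). They were Tdo2, the first enzyme of tryptophan breakdown (-4.87 ± 0.69, SE, adjusted p = 0.00199), at 4.50 to 5.06 in metastases and 8.03 to 10.76 in tumours, and Mat1a, which makes S-adenosylmethionine in liver (-4.42 ± 0.55, adjusted p = 0.000696), at 5.26 to 5.67 in metastases and 8.22 to 10.78 in tumours. Of the 12 hepatocyte markers, 7 were lower in the same comparison (median -4.75). In livers of day 25 against day 10, 6 of the 78 genes were lower and 1 was higher, a share close to the 9.10% of all genes called in that comparison. Slc1a2 was higher (1.37 ± 0.24, adjusted p = 0.00317). The lower genes, named after their values were seen, were Gcat of threonine breakdown (-1.43 ± 0.31, adjusted p = 0.00997), Ivd and Hibch of branched-chain amino acid breakdown (-1.01 and -0.62), Aldh4a1 of proline breakdown (-1.09), Afmid of tryptophan breakdown (-0.94) and Qdpr (-0.71), with adjusted p-values of 0.00674 to 0.0478.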

How the data were processed

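The 21 arrays measured tissue RNA of 9 rats. The values are log2 expression per probe set, deposited by the authors. Per the submitters' processing notes they were made with RMA, a method that corrects background, aligns the arrays by quantiles and sums up the probes of a set. Which program ran RMA is not stated. RMA compresses differences near both ends of the scale. The table held 31099 probe sets, 57 of them controls. The platform annotation gave 20832 a single gene symbol and 436 several, and for 20764 of those probe sets the gene number matched a current RefSeq gene of GRCr8. Each of the 14218 genes was represented by its probe set with the highest mean.

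Groups came from titles and source names. The descriptions of the day 25 livers name a later day than their titles and sources, whose day 25 was used. The replicates were different rats. Labels give no scan date or batch, so none was tested, and there were no detection calls. For arrays the number per group limits the precision.

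The values were fitted with limma 3.58.1 (lmFit and eBayes) in R 4.3.3 as 7 group means over all 21 arrays, for 13 comparisons, with Benjamini-Hochberg adjustment over 14218 genes within each comparison and a call at an adjusted p under 0.05. Percentages of the own liver were taken on the linear scale, from the log2 difference. The procedure was tested on simulated data. Tissues of 1 rat share its number in the labels, so rats pair tissues; the correlation of their deviations from group means was 0.04 to 0.297 between tumour and liver, 0.041 to 0.578 between tumour and metastasis, and 0.046 to 0.158 between metastasis and liver. Fits with the rat as a block were alternatives. Others were another normalization, other probe set choices, a filter on dim genes, a prior with a mean trend, only the compared groups, and leaving out each array in turn. Leaving out the 4 arrays with raised acinar transcripts was chosen after seeing the data.

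The members and gene lists were chosen with earlier results of these data known. Named were the 10 members in every comparison and, from each pathway list, for tumours against livers over all days, metastases against tumours, and livers of day 25 against those of day 10, up to 3 called genes with the largest change and the uncalled gene with the highest mean; not every gene allowed by this rule is printed. The nearest genes in the closing section are the 5 with the highest correlation with the members' mean and 2 for each member. Listed genes without a single-symbol probe set were not analysed here.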

Additional observations from a re-analysis of the deposited data

How the results depend on the processing

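The 10 members stayed lower in tumours than in livers over all days, and lower in metastases than in livers, under all 9 alternatives to the chosen settings and in all 21 fits that left out 1 array. For metastases against tumours the number of lower members was 2, and it was 0 with only the compared groups in the fit, 1 with the rat as a replicate block, and 1 to 4 when 1 array was left out. For tumours of day 25 against day 10 it was 0, and 4 without the 4 arrays with raised acinar transcripts. For livers of day 25 against day 10 it was 0, and 1 (Otc) with only the compared groups and 1 (Otc) without the arrays with raised acinar transcripts. Changes near 0 turned their sign. In livers of day 25 against day 10, Cps1 changed by 0.06 after quantile normalization. With 1 array left out, the range there was -0.21 to 0.19 for Cps1, -0.51 to 0.12 for Ass1, -0.45 to 0.28 for Arg1, -0.84 to 0.74 for Tat, -0.49 to 0.03 for Hpd and -0.38 to 0.04 for Hgd. In tumours of day 25 against day 10 the same range was -0.91 to 0.21 for Aass, and for the Otc change of the tumour to liver difference it was -1.16 to 0.30, both highest without the tumour of rat 7. The cause was not tested. The rat block changed no other call among the members.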

Other observations

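Among all genes other than the members, those whose levels were most like the mean of the 10 members over the 21 arrays were Sult1a1 (Pearson r = 0.995), Cyp27a1 (0.99), Slc27a5 (0.989), Agt (0.989) and Uox (0.988). As background, Sult1a1 is a sulfotransferase, Cyp27a1 and Slc27a5 act in bile acid metabolism, Agt encodes angiotensinogen and Uox encodes urate oxidase. For single members, the nearest genes were Adh1c (0.983) and Pigr (0.982) for Cps1, Akr1c13 (0.982) and Nadk2 (0.98) for Otc, Gpld1 (0.984) and Hoga1 (0.983) for Ass1, Pttg1ip (0.988) and Agxt (0.978) for Asl, and Slc25a15 and Gpld1 (both 0.974) for Arg1. The breakdown genes were nearest to Uox (0.974) and Slc25a15 (0.97) for Tat, Tdo2 (0.995) and Mat1a (0.99) for Hpd, Apoc4 (0.996) and Slc27a5 (0.995) for Hgd, Sult1a1 and Agt (both 0.988) for Aass, and Apoc4 (0.995) and Hoga1 (0.993) for Ftcd. The arrays behind these correlations share tissues, rats and a single normalization, and the values are a description.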
